A study of Mus musculus with 3 samples.

Results

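Transcription factors and cofactors of the pharyngeal pouch and of epithelial identity, Pax1, Pax9, Eya1, Six4, Tbx1, Isl1, Trp63 and Gcm2, were followed through the single-cell transcriptomes of the aged mouse thymus. They were taken by symbol, and all 8 members were found among 32293 measured features. The data came from nonhematopoietic (CD45-) thymic cells of untreated C57BL/6 mice at 20 months of age, in 3 libraries with 1 library per group: Foxn1Lin female, Foxn1Lin male and wild type male. Foxn1Lin stands for the Foxn1 lineage trace, in which Cre under control of the Foxn1 gene turns on the tdTomato reporter of the Ai14 allele for good, so that cells keep the mark after Foxn1 itself has gone silent; the wild type carries neither allele. The sorted cells of several thymi were pooled in each library, and one label of the wild type library names a PECAM1+ sort whereas its title names all CD45- cells. Sex is given here as the titles have it, while a protocol shared by all samples names female mice. Genotype, sex and library cannot be told apart here, and values are therefore given for each library without a test between them.

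The thymic epithelium descends from the third pharyngeal pouch, an endodermal outgrowth that also gives rise to the parathyroid. Pax1 and Pax9 are paired-box factors of the pouch, Eya1 is a phosphatase and coactivator that works with Six-family homeodomain proteins such as Six4, Tbx1 is the T-box factor of the pharyngeal apparatus, and Isl1 is a LIM-homeodomain factor. Gcm2 is the master regulator of the parathyroid fate, and Trp63 (p63) is the factor that maintains stratified epithelia, including that of the thymus. Foxn1 directs thymic epithelial differentiation from the pouch.

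Cells were placed in 4 classes by their unique molecular identifiers (UMIs, one per captured transcript). Thymic epithelial cells (TEC) held at least 2 Epcam UMIs, endothelial cells (EC) at least 2 of Pecam1 and fibroblasts (FB) at least 2 of Pdgfra. Spp1-high cells held at least 5 UMIs of Spp1, the gene of osteopontin, at most 1 of Epcam and 0 of Ptprc, and cells in 2 classes were dropped. Values of the libraries are given in 1 order throughout, Foxn1Lin female first, Foxn1Lin male next and wild type male last. There were 529, 487 and 1072 TEC, 2171, 862 and 893 EC, and 1885, 874 and 1740 FB. The Spp1-high class was small, with 13, 34 and 36 cells. The libraries held 33386621 to 61258534 UMIs in called barcodes, and 9.46% to 26.5% of all UMIs lay outside them. Levels are counts per 1000000 UMIs of a class (CPM) with exact Poisson 95% intervals, and shares of cells have exact binomial 95% intervals. Both cover counting error only.

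The labels of the classes were checked with markers. The 8 TEC markers summed to 7020 to 8449 CPM in TEC and to 380 to 850 CPM in Spp1-high cells, in which Krt5 and Krt19 were at 0 in every library. Krt8, Krt18 and H2-Aa were found in Spp1-high cells of every library. In FB the 8 TEC markers summed to 87.9 to 198 CPM. The 7 FB markers summed to 14356 to 16800 CPM in FB and to 3541 to 4694 CPM in Spp1-high cells. The 7 mural markers were at 1081 to 1728 CPM in Spp1-high cells and at 181 to 277 CPM in FB. Of 4 Schwann-type markers, 0 were found in Spp1-high cells of both Foxn1Lin libraries and 1 in the wild type male. Spp1-high cells thus had signs of several classes and are called here by the rule that chose them. Their part in the results below was not tested.

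The starts of Pax1, Pax9 and Isl1 are shown because these members were lower in Aire-gated TEC (described below) and have a window in the promoter table. The windows run from 250 bases before to 50 bases after the RefSeq start on GRCm38.p6, 5′ to 3′ on the strand of the gene. Capitals mark GACGC, the core letters bound by FOXN1, or their reverse complement.
Pax1 (chr2:147364744-147365043, plus strand): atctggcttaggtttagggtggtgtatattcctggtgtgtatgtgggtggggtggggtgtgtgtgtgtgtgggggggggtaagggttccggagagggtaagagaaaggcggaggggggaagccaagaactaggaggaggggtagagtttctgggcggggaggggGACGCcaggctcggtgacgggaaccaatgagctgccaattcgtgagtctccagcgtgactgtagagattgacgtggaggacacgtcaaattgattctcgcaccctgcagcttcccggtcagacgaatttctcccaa
Pax9 (chr12:56695221-56695520, plus strand): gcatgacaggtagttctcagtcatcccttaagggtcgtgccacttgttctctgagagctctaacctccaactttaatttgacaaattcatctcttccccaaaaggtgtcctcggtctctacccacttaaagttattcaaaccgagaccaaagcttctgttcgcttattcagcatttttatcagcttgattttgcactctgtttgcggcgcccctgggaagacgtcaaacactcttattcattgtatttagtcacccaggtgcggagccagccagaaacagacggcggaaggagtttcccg
Isl1 (chr13:116309639-116309938, minus strand): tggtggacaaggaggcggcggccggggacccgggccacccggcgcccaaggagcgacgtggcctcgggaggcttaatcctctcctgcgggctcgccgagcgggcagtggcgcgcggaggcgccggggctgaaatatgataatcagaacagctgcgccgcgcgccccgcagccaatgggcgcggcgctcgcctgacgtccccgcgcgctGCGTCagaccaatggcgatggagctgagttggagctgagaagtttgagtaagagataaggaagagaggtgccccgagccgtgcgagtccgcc
The window of Pax1 held 1 match, that of Isl1 held 1 and that of Pax9 held 0, searched on both strands. Of 32851 windows of this length, 27.2% held at least 1. CCAAT was found 2 times in the window of Pax1, 2 times in that of Isl1 and 0 times in that of Pax9, against 37.4% of all windows with a match. Of the 2 windows of Tbx1, 1 held 2 matches of GACGC, and the windows of Six4 and Gcm2 held 0. Eya1 and Trp63 are named only. These matches are letters in a window, not sites of binding. On GRCm38 the genes lie on chromosomes 1 (Eya1), 2 (Pax1), 12 (Pax9 and Six4), 13 (Isl1 and Gcm2) and 16 (Tbx1 and Trp63), and Trp63, the longest, spans 208340 bases (chr16:25683763-25892102).

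Pax1, Pax9, Eya1, Six4, Tbx1, Isl1 and Trp63 were higher in TEC than in FB and EC, and so was Gcm2, which reached the minimum of 10 UMIs through TEC alone and is no support for the count. Against FB, 8 of 8 members passed the test as higher (edgeR, adjusted p at most 0.05), where 47.7% of all genes passed, 26.7% as higher and 21% as lower. Against EC 8 of 8 members were higher, where 46.5% of all genes passed, 26.4% as higher and 20.1% as lower. The median log2 difference of the members was 4.17 against FB and 5.04 against EC, beside 0.17 and 0.21 over all genes. Tbx1 and Gcm2 had the fewest UMIs, and their calls had the highest adjusted p against EC. Most Gcm2 UMIs of TEC lay in cells with at least 100 UMIs of Pth, the parathyroid hormone gene, and without those cells Gcm2 could not be tested and 7 members were called in both comparisons. The share of called genes that were higher in TEC depended on the scaling, at 55.9% against FB with TMM and 75.6% with library totals, and at 56.7% and 75.3% against EC, and all 8 members were called higher under both.

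**Figure D1:**
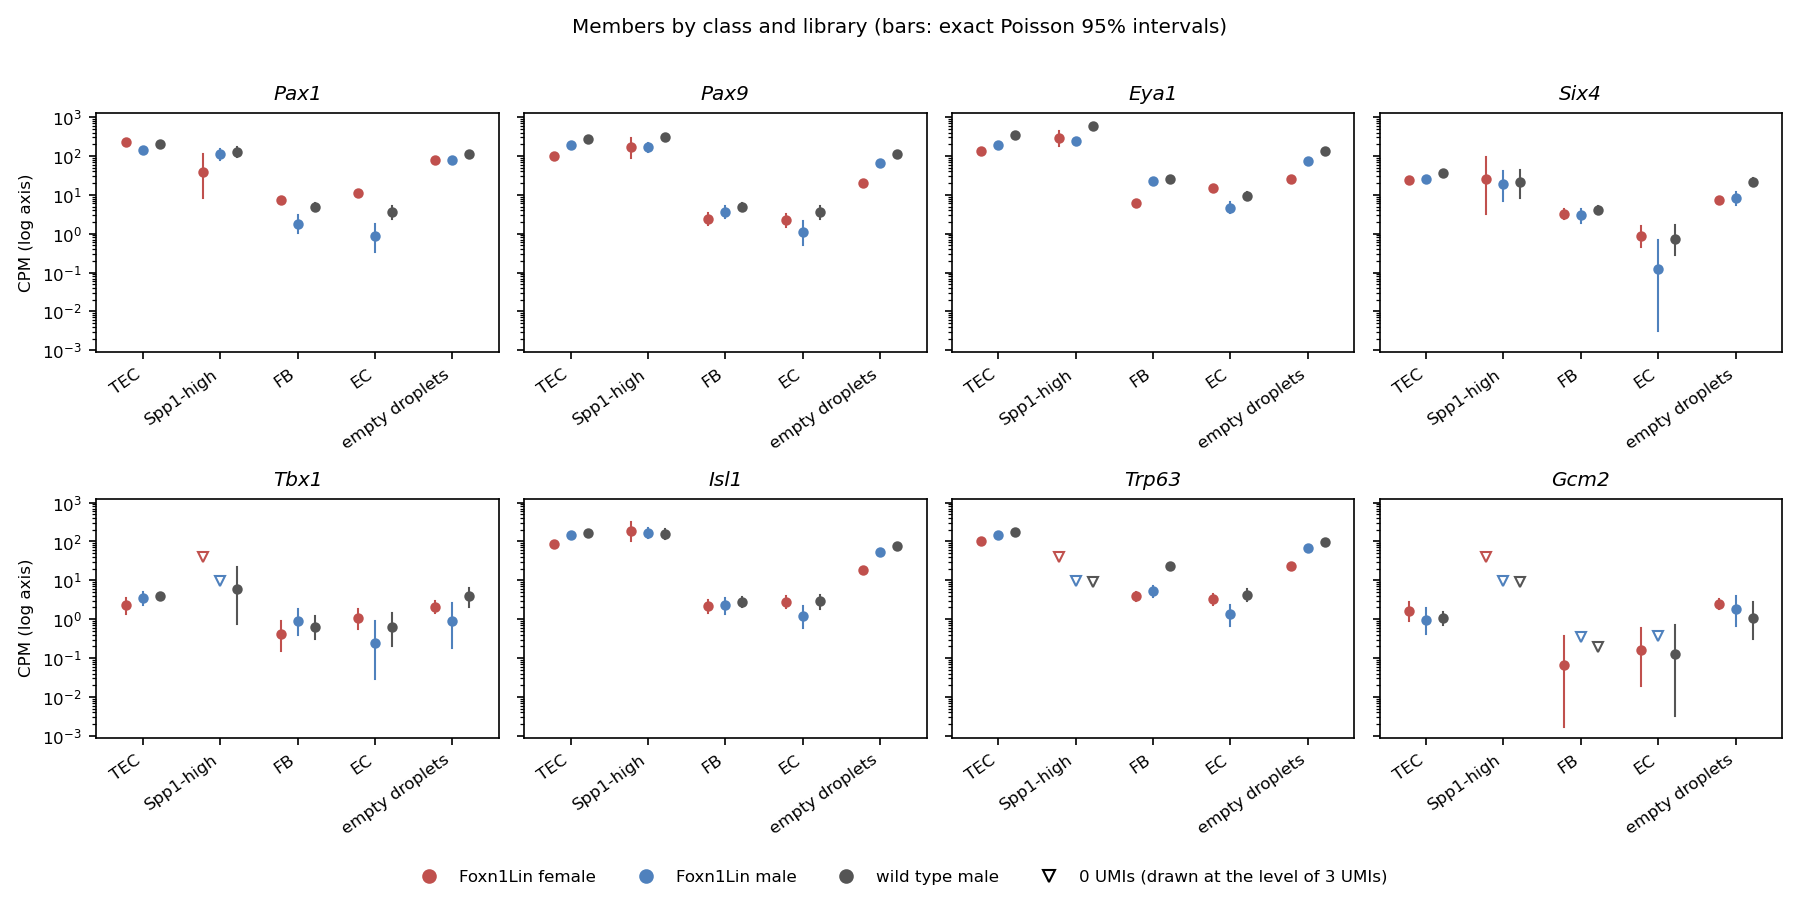
Level of each member (CPM, log axis) in TEC, Spp1-high cells, FB, EC and empty droplets of the 3 libraries; points are summed counts, bars exact Poisson 95% intervals, and open triangles mark 0 UMIs at the level of 3 UMIs. In Spp1-high cells Pax1, Pax9, Eya1, Six4 and Isl1 lay above their FB and EC levels in every library, and Trp63 had 0 UMIs there in all 3. In Foxn1Lin female these levels rested on 3 UMIs for Pax1 and 2 for Six4, whose log2 ratio to FB had an interval of -0.05 to 4.97.

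Pax1 was at 224, 147 and 203 CPM in TEC of the 3 libraries. In FB it was at 7.46, 1.82 and 4.81 CPM and in EC at 10.9, 0.847 and 3.63 CPM. Every TEC value of Pax1 lay above every value of FB and EC, and the log2 difference from FB was 5.01 ± 0.51 (SE; edgeR, adjusted p = 5.04e-06). In empty droplets, which hold free RNA, Pax1 was at 79.4, 79.0 and 115 CPM, above its level in EC and FB cells.

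Pax9 was at 99.6 CPM in TEC of Foxn1Lin female, 186 CPM in Foxn1Lin male and 273 CPM in wild type male. The counting intervals of these values did not overlap, which is no test between the libraries. FB had 2.44 to 5.00 CPM and EC 1.09 to 3.63 CPM of Pax9. The log2 difference of TEC from FB was 5.16 ± 0.28 (SE; edgeR, adjusted p = 5.78e-08). The TEC level of Pax9 was lowest in Foxn1Lin female, the library in which that of Pax1 was highest. Psmb11-gated cells, described below, numbered 84, 13 and 88 and held 1393 of the 1761 Pax1 UMIs of Foxn1Lin female, and in the other TEC Pax1 was lowest in that library, at 65.2, 136 and 139 CPM.

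Eya1 followed the same order over the libraries, with 135, 195 and 339 CPM in TEC. Six4, a partner of the Eya proteins, was at 24.6, 25.4 and 36.3 CPM in TEC. Both genes had their highest TEC level in wild type male. In FB, Eya1 was at 22.2 CPM in Foxn1Lin male and 24.9 CPM in wild type male, above its EC level of 4.72 and 9.50 CPM, whereas in Foxn1Lin female FB, at 6.17 CPM, lay below EC, at 15.2 CPM. In Foxn1Lin female 70 of 1885 FB and 134 of 2171 EC had an Eya1 UMI. One was found in 11.4% of FB (100 of 874 cells) in Foxn1Lin male and in 10.6% (184 of 1740) in wild type male, and in 2.20% and 2.91% of EC, the class that served as background. The median depth was 9411.5 and 8266 UMIs in FB and 7558 and 7129 UMIs in EC, and after thinning to 2000 UMIs the Eya1 shares were 3.44% and 3.55% of FB and 0.962% and 1.42% of EC. Six4 in FB was at 2.96 to 4.10 CPM, above the 0.121 to 0.887 CPM of EC in every library.

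Isl1 was at 84.8, 145 and 167 CPM in TEC, and at 2.17 to 2.82 CPM in FB and 1.21 to 2.88 CPM in EC. The log2 difference of TEC from FB was 5.28 ± 0.31 (SE; edgeR, adjusted p = 8.98e-08). Cells with at least 2 UMIs of Upk3b, a gene of mesothelium, were set apart from the 4 classes, and Isl1 was at 17.1 CPM there in Foxn1Lin female and at 14.1 CPM in wild type male. These mesothelial-gate cells had an Isl1 UMI in 15.0% (52 of 347) and 17.9% (7 of 39) of cells, against 1.27% and 1.95% of FB of the same libraries. After thinning to 2000 UMIs per cell the Isl1 shares were 5.39% and 7.69%, against 0.216% and 0.350% of FB. Pax9 in these cells was at 4.07 and 10.1 CPM, and the Foxn1Lin male library held 0 of them. The 8 TEC markers summed to 2131 and 1208 CPM in these cells, against 198 and 163 CPM in FB, and the empty droplets held Isl1 at 18.1 and 77.5 CPM, above the level in these cells. The part of epithelial RNA in the Isl1 shares was not tested.

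Tbx1 was sparse, at 2.29, 3.48 and 3.97 CPM in TEC, from 18, 29 and 96 UMIs. Its levels in FB were 0.407 to 0.911 CPM and in EC 0.242 to 1.05 CPM. The log2 difference from FB was 1.88 ± 0.58 (SE; edgeR, adjusted p = 0.0167), and without the wild type male library it was 1.70 with an adjusted p of 0.149 (edgeR). Against EC the difference of 1.79 ± 0.60 was not called without Foxn1Lin male (adjusted p = 0.152, edgeR) nor without wild type male (adjusted p = 0.178, edgeR). In EC of Foxn1Lin female, Tbx1 had 8 of its 13 UMIs in the 28 cells with a UMI of Prox1, a lymphatic factor, or 28.9 CPM (12.5 to 56.9). The same gate held 0 Tbx1 UMIs in Foxn1Lin male and 1 in wild type male, but its 5 lymphatic markers summed to 1331 CPM in Foxn1Lin female and to 117 and 130 CPM in these libraries, with Lyve1 and Reln at 0.

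Trp63 was at 106, 144 and 175 CPM in TEC and at 1.33 to 4.25 CPM in EC. In FB it was at 3.87 and 5.24 CPM in the Foxn1Lin libraries and at 22.9 CPM in wild type male. The log2 difference of TEC from FB was 3.61 ± 0.41 (SE; edgeR, adjusted p = 3.09e-05). A Trp63 UMI was found in 191 of 1740 wild type male FB, or 11.0%, and in 3.96% after thinning to 2000 UMIs, against 0.708% of EC. The 67 wild type FB with at least 2 Trp63 UMIs held 0 Epcam UMIs, 2 Krt5 UMIs and 2 Pax9 UMIs, and Dcn, a fibroblast gene, was at 9185 CPM in them and at 9941 CPM in wild type FB without Trp63. In Foxn1Lin female, the 7 FB with at least 2 Trp63 UMIs held Krt8 at 890 CPM, against 33.7 CPM in FB without Trp63. In Foxn1Lin male, 8 such FB held Pax1 at 72.4, Pax9 at 81.5 and Isl1 at 63.4 CPM, against 0.835, 2.62 and 1.55 CPM in FB without Trp63, and 0 Epcam UMIs. These cells were chosen after their values were seen.

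Gcm2 had 13, 8 and 26 UMIs in TEC, from 4, 3 and 2 cells. Of these UMIs 11, 7 and 25 lay in the 2, 2 and 1 cells that also held at least 100 Pth UMIs. FB held 1 Gcm2 UMI in all and EC held 3. The log2 difference of TEC from FB was 4.72 ± 0.99 (SE; edgeR, adjusted p = 0.00241). The difference from EC was 3.14 ± 0.88 (edgeR, adjusted p = 0.0131), and with 1 library left out it was 3.45, 2.80 and 3.37 and was not called (edgeR, adjusted p 0.0566 to 0.0780).

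Spp1-high cells held UMIs of Pax1, Pax9, Eya1, Six4 and Isl1 and no Trp63 UMI. No difference of the 5 genes from TEC passed the test, which does not show that they were at the same level. Within single libraries some counting intervals excluded 0. For Pax1 the female library gave a log2 ratio of -2.51 (-4.79 to -0.96), and wild type male one of -0.68 (-1.15 to -0.24). For Isl1 the female library gave one of 1.11 (0.23 to 1.87), and those of Eya1 are given below. Of 8 members, 0 were higher and 1, Trp63, was lower than in TEC (edgeR, adjusted p at most 0.05), where 12.4% of all genes passed, 6.22% as higher and 6.14% as lower. Against FB, 5 of 8 members were higher in Spp1-high cells, where 6.97% of all genes passed, 2.66% as higher and 4.31% as lower. The median log2 difference of the members from TEC was -0.16 beside -0.79 over all genes, and -0.09 with Trp63 placed at its bound and Gcm2 left out. Of the genes called against TEC, 50.3% were higher with TMM and 35.1% with library totals, and against FB 38.2% and 56.1%, with the same number of members called.

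Eya1 was at 288, 237 and 581 CPM in Spp1-high cells, from 22, 76 and 192 UMIs, and each value lay above the TEC value of its library, with log2 ratios of 1.09 (0.41 to 1.70), 0.28 (-0.07 to 0.61) and 0.78 (0.56 to 0.98). The log2 difference from TEC was 0.93 ± 0.45 (SE; 95% interval -0.05 to 1.91; edgeR, adjusted p = 0.235). Without Foxn1Lin female, whose class held 13 cells, it was 0.89 ± 0.23 and Eya1 was called higher (edgeR, adjusted p = 0.0115). Against FB, Eya1 was higher by 4.13 ± 0.50 on the log2 scale (edgeR, adjusted p = 0.000343).

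Isl1 was at 183, 165 and 157 CPM in Spp1-high cells, and its difference from TEC was 0.55 ± 0.28 (SE; 95% interval -0.06 to 1.15; edgeR, adjusted p = 0.262). Pax9 was at 170, 168 and 303 CPM, with a log2 difference from TEC of 0.42 ± 0.26 (95% interval -0.13 to 0.98; edgeR, adjusted p = 0.361). Both genes were higher than in FB, Isl1 by 5.83 ± 0.34 (edgeR, adjusted p = 1.04e-06) and Pax9 by 5.59 ± 0.30 (edgeR, adjusted p = 6.92e-07). All 3 Spp1-high values of both genes lay above all 3 FB values.

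Pax1 in Spp1-high cells was at 39.3 CPM in Foxn1Lin female, from 3 UMIs, and at 112 and 127 CPM in the others. All values lay below the TEC value of the same library, and the log2 difference was -0.48 ± 0.50 (95% interval -1.55 to 0.60; edgeR, adjusted p = 0.638). Six4 was at 26.2, 18.7 and 21.2 CPM from 2, 6 and 7 UMIs, with a difference from TEC of -0.24 ± 0.42 (95% interval -1.15 to 0.67; edgeR, adjusted p = 0.779). Against FB, Pax1 was higher by 4.53 ± 0.58 (edgeR, adjusted p = 0.000460) and Six4 by 2.37 ± 0.48 (edgeR, adjusted p = 0.00897). Without wild type male the Six4 difference was 2.66 ± 0.76 and was not called (edgeR, adjusted p = 0.151). Tbx1 had 0, 0 and 2 UMIs in these cells and Gcm2 had 0 in all, too few to compare.

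Trp63 had 0 of 727895 UMIs in the Spp1-high cells of the 3 libraries. At the TEC level of each library 112 UMIs would have been counted, so that Trp63 was at least 37.4-fold lower, taking 3 counts over the class as the limit (edgeR, adjusted p = 0.000924). The empty droplets of these libraries held Trp63 at 23.4, 66.7 and 94.9 CPM. Against the low level of FB the class allowed a bound of at least 3.19-fold, and that difference did not pass (edgeR, adjusted p = 0.140). With only these 2 classes in the fit it was called lower (edgeR, adjusted p = 0.0146).

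The UMIs of the 5 genes were spread over the Spp1-high cells. All 13 cells of Foxn1Lin female, all 34 of Foxn1Lin male and 35 of 36 of wild type male had a UMI of Pax1, Pax9, Eya1, Six4 or Isl1. UMIs of at least 3 of the 5 genes were found in 3, 18 and 25 cells. After thinning to 2000 UMIs the share with any of them was 69.2%, 72.7% and 83.3%, against 52.4%, 64.6% and 70.8% of TEC, 3.83%, 4.59% and 5.30% of FB and 5.03%, 1.20% and 2.48% of EC. The cell with the most such UMIs held 35.2% of them in Foxn1Lin female and 9.78% and 9.41% in the others.

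**Figure D2:**
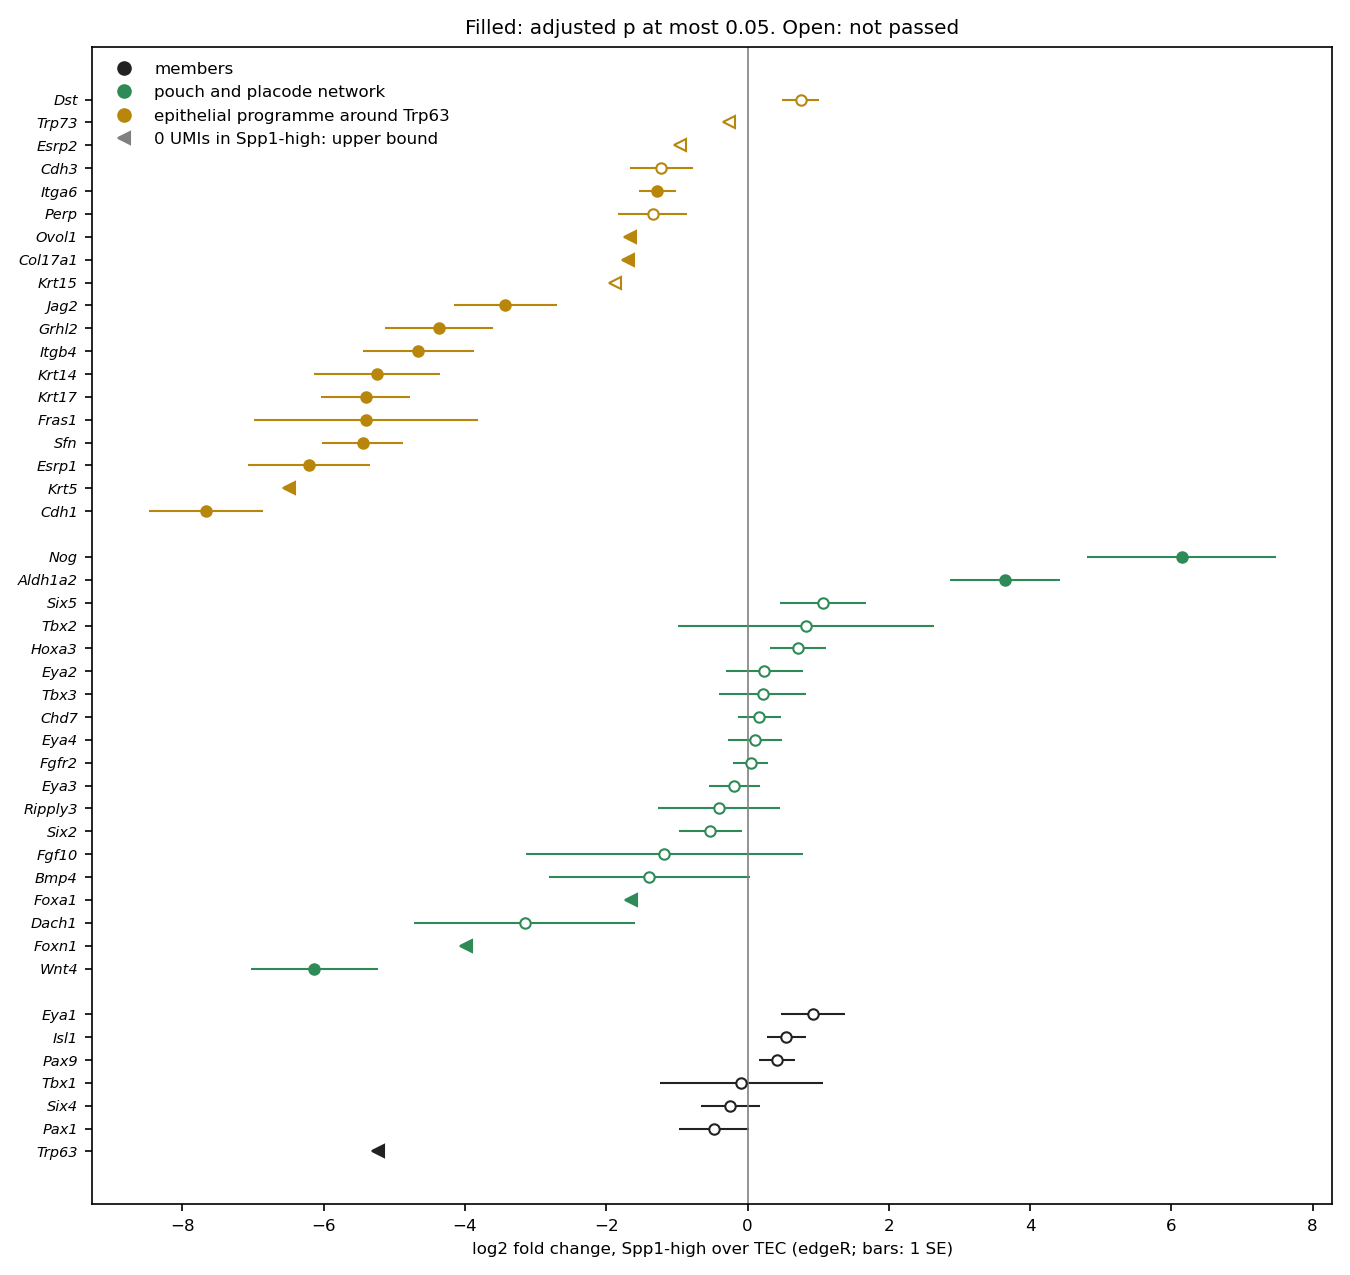
Log2 difference of Spp1-high cells from TEC for the members, genes of the pouch and placode network and of the epithelial programme around Trp63 (edgeR; bars 1 SE; filled symbols passed the adjusted p of 0.05). Left-pointing triangles are upper bounds for genes with 0 UMIs in Spp1-high cells, and genes expected at under 3 UMIs or not reported here are left out; over the whole lists 13 of 20 genes of the epithelial programme were lower and 3 of 25 of the network.

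Other genes of both programmes were counted in the same comparison. Of 25 tested genes of the pouch and placode network, 3 were higher than in TEC, 3 lower and 19 did not pass. Foxn1 had 0 UMIs in Spp1-high cells, at least 15.9-fold fewer than the TEC level gives (edgeR, adjusted p = 0.00324), and Wnt4 was lower by 6.13 on the log2 scale, fitted at -6.13 ± 0.90 (edgeR, adjusted p = 0.000636). Aldh1a2 and Nog passed as higher, and most of their UMIs lay in 1 library: 19 of 23 for Aldh1a2 and 11 of 13 for Nog came from Foxn1Lin female.

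Of 20 genes of the epithelial programme around Trp63, 0 were higher than in TEC, 13 lower and 7 did not pass. Their median log2 difference was -5.41, and -2.65 with the 6 genes at 0 UMIs placed at their bounds, beside -0.79 over all genes. Krt5, the basal keratin and a TEC marker named after its value was seen, was at 250, 387 and 385 CPM in TEC and had 0 UMIs in Spp1-high cells, at least 90.2-fold fewer (edgeR, adjusted p = 0.000461). Cdh1 (E-cadherin) fell by 7.67 on the log2 scale, fitted at -7.67 ± 0.81 (edgeR, adjusted p = 5.54e-05). Sfn, Krt17 and Esrp1, the next by adjusted p, differed by -5.45, -5.40 and -6.21 (edgeR, adjusted p 5.61e-05 to 0.000442). Against FB, 4 of the 20 genes were higher in Spp1-high cells, with Itga6 at 2.83, Cdh3 at 3.90 and Perp at 4.60 on the log2 scale (edgeR, adjusted p 6.81e-05 to 0.000909). Of 6 parathyroid genes, 3 (Pth, Casr and Chga) were lower than in TEC, where 6.14% of all genes were, and 3 did not pass. Cells with at least 100 Pth UMIs, described below, held 57.1%, 99.2% and 98.8% of all Pth UMIs. Of these cells 4, 3 and 1 were in the TEC class, and their part in these differences was not tested.

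Within TEC, 4 gates were used that can overlap: Psmb11 (at least 2 UMIs), a cortical proteasome gene; Aire (at least 2), the regulator of tissue antigens in the medulla; Ccl21a (at least 10), a medullary chemokine; and Plet1 (at least 2). Each was compared with all TEC that did not pass it. Gated TEC were deep, with median UMIs up to 29118, whereas TEC with no gate had medians of 8258 to 12438. CPM values take depth into account, shares of cells do not.

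**Figure D3:**
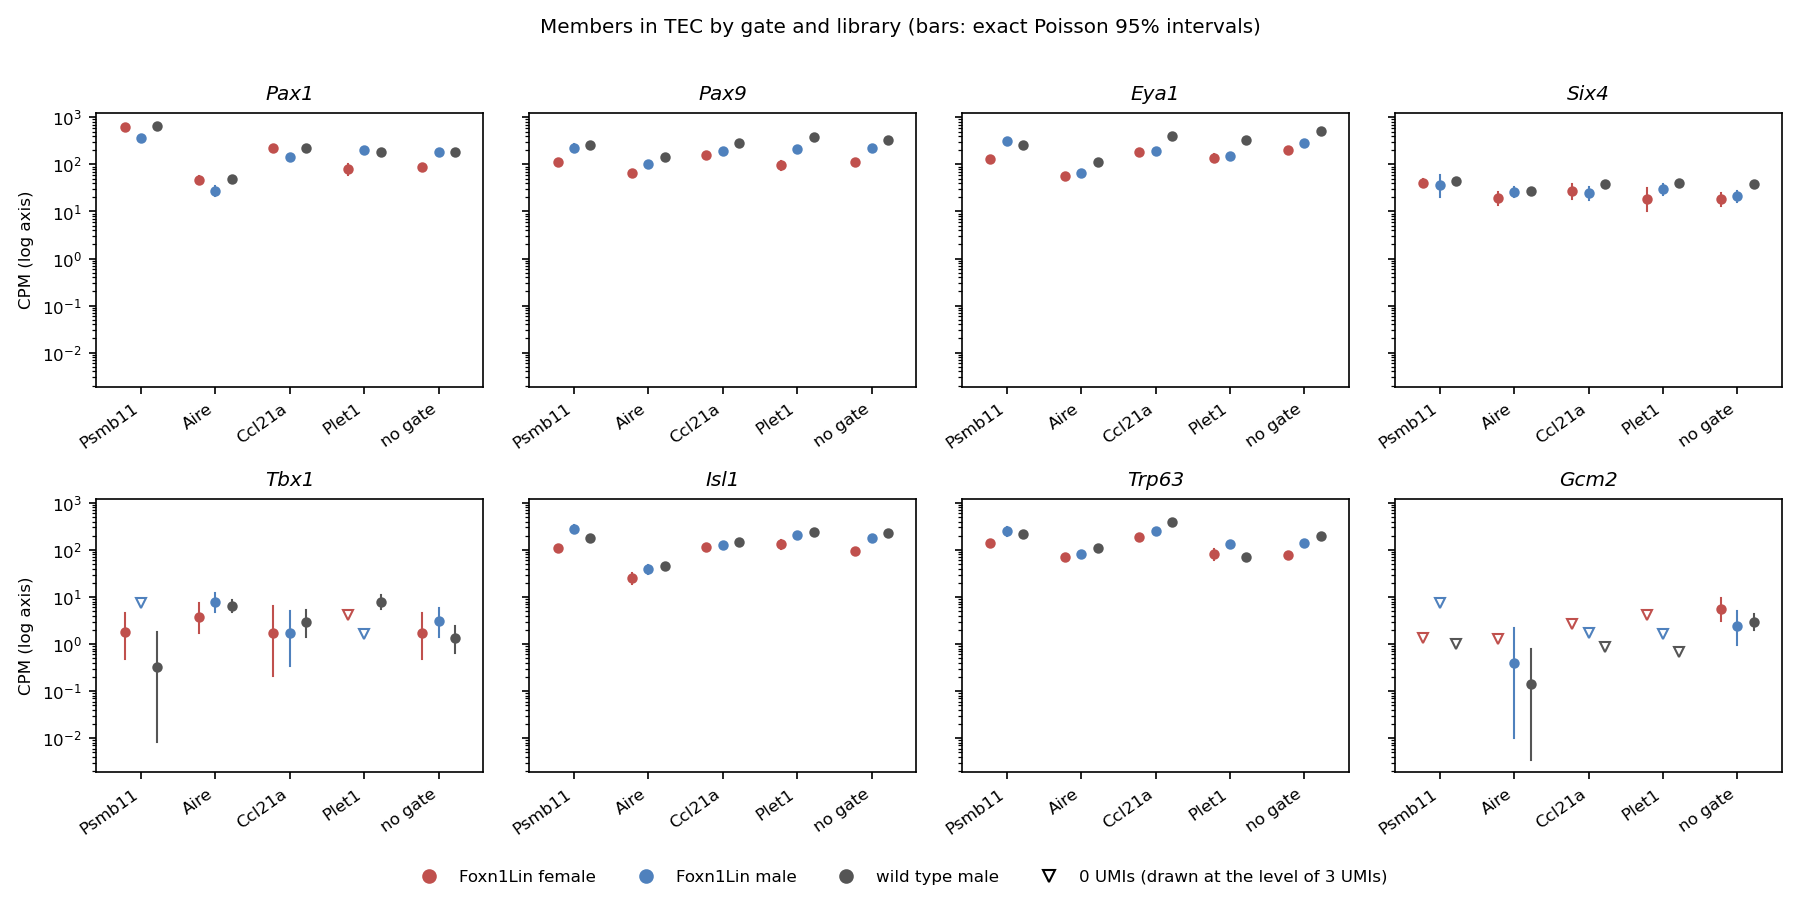
Level of each member (CPM, log axis) in TEC that pass the Psmb11, Aire, Ccl21a or Plet1 gate or none of them, for the 3 libraries; points are summed counts, bars exact Poisson 95% intervals, and open triangles mark 0 UMIs at the level of 3 UMIs. Pax1 was highest in Psmb11-gated cells (356 to 644 CPM), and Pax1, Eya1 and Isl1 were lowest in Aire-gated cells of all 3 libraries.

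Pax1 was at 624, 356 and 644 CPM in Psmb11-gated TEC and at 46.0, 26.8 and 49.9 CPM in Aire-gated TEC, and each value of the first gate lay above each value of the other gates. In the Psmb11 comparison 3 of 8 members passed, 2 as higher and 1 as lower, where 24.9% of all genes passed, 6.3% as higher and 18.6% as lower. The lower one was Gcm2, which reached the minimum of 10 UMIs through the other TEC alone and is no support for the count. Pax1 was higher by 2.25 ± 0.27 (log2, SE; edgeR, adjusted p = 5.35e-07) and Trp63 by 0.56 ± 0.19 (edgeR, adjusted p = 0.0353). Trp63 was at 141, 248 and 218 CPM there, and its call was lost, at no smaller a difference, without Foxn1Lin female (0.60 ± 0.23; edgeR, adjusted p = 0.0547) and without wild type male (0.68 ± 0.26; edgeR, adjusted p = 0.05004). With cells of Psmb11 alone against cells of no gate, which left under 10 such cells in Foxn1Lin male and so a fit of the other 2 libraries, Trp63 was not called (0.48 ± 0.21; edgeR, adjusted p = 0.0634) and Eya1 was called lower (-0.84 ± 0.21; edgeR, adjusted p = 0.000678). Foxn1Lin male was the library in which Eya1 was higher in Psmb11-gated than in other TEC, with a log2 ratio of 0.70 (0.42 to 0.96). Isl1, at 0.51 ± 0.20 (edgeR, adjusted p = 0.0702), was called higher under 4 alternatives (edgeR, adjusted p 0.0191 to 0.0427), Six4, at 0.64 ± 0.26 (edgeR, adjusted p = 0.0814), under 2 (edgeR, adjusted p 0.0326 and 0.0477), and Tbx1, at -1.997 ± 0.80 (edgeR, adjusted p = 0.0715), was called lower without Foxn1Lin female (edgeR, adjusted p = 0.0396). Gcm2 had 0 UMIs in Psmb11-gated TEC, against 13, 8 and 26 in the other TEC, most of them in the few Pth-rich cells.

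In the Aire comparison 5 of 8 members were lower and 0 higher, where 31.5% of all genes passed, 15.9% as higher and 15.6% as lower. The 10 hematopoietic markers summed to 1416, 1339 and 1174 CPM in Aire-gated TEC, against 726, 457 and 329 CPM in TEC of no gate, with all 10 detected in both, and their part in these differences was not tested. Pax1 fell by 2.75 on the log2 scale (-2.75 ± 0.15; edgeR, adjusted p = 0.000208). Isl1 was at 25.1, 38.5 and 45.1 CPM in Aire-gated TEC and differed by -2.34 ± 0.13 (edgeR, adjusted p = 0.000219). Eya1 was at 55.4, 65.7 and 112 CPM and differed by -1.94 ± 0.14 (edgeR, adjusted p = 0.000324). Pax9 and Trp63 differed by less, -1.15 ± 0.14 and -1.01 ± 0.13 (edgeR, adjusted p = 0.00180 and 0.00206). Six4 did not pass (-0.46 ± 0.18; edgeR, adjusted p = 0.103).

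Tbx1 was the one member whose fitted difference in Aire-gated TEC was above 0, at 1.45 ± 0.46 (edgeR, adjusted p = 0.0539). It was called higher with library totals, filterByExpr and doubled thresholds (edgeR, adjusted p 0.0380 to 0.0487). Gcm2 had 0, 1 and 1 UMIs in Aire-gated TEC, too few to lean on, and differed by -3.18 ± 1.01 (edgeR, adjusted p = 0.0548). It was called lower with genes of at least 1 UMI, no replicate block, doubled thresholds and exclusive gates (edgeR, adjusted p 0.0294 to 0.0497). Most Gcm2 UMIs of the other TEC lay in the few Pth-rich cells. Tbx1 levels in Aire-gated TEC were 3.83, 7.78 and 6.50 CPM, from 9, 20 and 47 of the 18, 29 and 96 TEC UMIs. Of the pouch and placode network, 6 genes were higher and 10 lower in Aire-gated TEC, with Eya2 at -1.54 ± 0.12 (edgeR, adjusted p = 0.000435), Wnt4 at -1.57 ± 0.15 (edgeR, adjusted p = 0.000719) and Bmp4 at -5.75 ± 0.56 (edgeR, adjusted p = 0.000789). Of the epithelial programme, 1 gene was higher and 10 were lower.

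In Ccl21a-gated TEC, 1 of 8 members passed, where 6.49% of all genes did, 2.15% as higher and 4.34% as lower. This was Trp63, at 189, 252 and 391 CPM, the highest of the 4 gates in every library, although close to the 248 CPM of the Psmb11 gate in Foxn1Lin male, and higher than in the other TEC by 1.26 ± 0.14 (log2, SE; edgeR, adjusted p = 0.00259). Of the 20 genes of the epithelial programme, 6 were higher and 0 lower there. In Plet1-gated TEC 1 of 8 members passed, where 5.25% of all genes did, 2.38% as higher and 2.86% as lower. Isl1 was at 131, 210 and 238 CPM in these cells and higher by 0.73 ± 0.12 (edgeR, adjusted p = 0.0202). With doubled thresholds Isl1 was not called (0.59 ± 0.14; edgeR, adjusted p = 0.0634) and Trp63 was called lower (-1.47 ± 0.21; edgeR, adjusted p = 0.0116). Without wild type male 0 members were called (Isl1 0.75 ± 0.22; edgeR, adjusted p = 0.171), and without Foxn1Lin male 2 were, Isl1 and a lower Trp63 (-0.91 ± 0.24; edgeR, adjusted p = 0.0300). With cells of Plet1 alone against cells of no gate, Isl1 differed by 0.37 ± 0.15 and 0 members passed (edgeR, adjusted p = 0.389).

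Without the library as a block, Pax9 was not called in the Aire comparison (-1.21 ± 0.41; edgeR, adjusted p = 0.0649), and 1 member was called in the Psmb11 comparison, 0 in the Ccl21a comparison (Trp63 1.30 ± 0.30; edgeR, adjusted p = 0.0859) and 0 in the Plet1 comparison (Isl1 0.75 ± 0.31; edgeR, adjusted p = 0.294).

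Members were also found together in single TEC. In cells thinned to 10000 UMIs, an Isl1 UMI was found in 61.9%, 80.6% and 72.0% of TEC with a Pax1 UMI and in 22.5%, 38.2% and 34.6% of TEC without one. Trp63 differed less with Pax1, at 55.2%, 60.0% and 53.9% of TEC with a Pax1 UMI and 33.1%, 45.1% and 46.0% without. The shares of Trp63 in TEC with and without an Eya1 UMI were 42.6% and 43.2% in Foxn1Lin female, 55.2% and 49.6% in Foxn1Lin male and 54.5% and 41.8% in wild type male.

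Likeness was measured as Pearson's r of log2(CPM + 1) over 21 points (EC, FB, Spp1-high and the 4 TEC gates of each library), which share libraries and, for the gates, cells, among 16239 genes. Pax9 and Isl1 had an r of 0.975, and Pax9 and 3110039M20Rik an r of 0.971. Six4 had an r of 0.971 to Pfn2, Eya1 was most like Pax9 (r = 0.961) and Pax1 most like Bcl11a (r = 0.975). Trp63 had r of 0.368 to 0.592 to Pax1, Pax9, Eya1, Six4 and Isl1, and was most like Bmp7 (r = 0.983). Tbx1 had lower values to the same 5 genes, 0.116 to 0.295, and was most like Gm47578 (r = 0.843). It had 177 UMIs over these points, against 1164 to 7358 for the 5 genes, and the part of low counts in its values was not tested. Gcm2 had 6 UMIs over these points, too few for this measure.

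**Figure D4:**
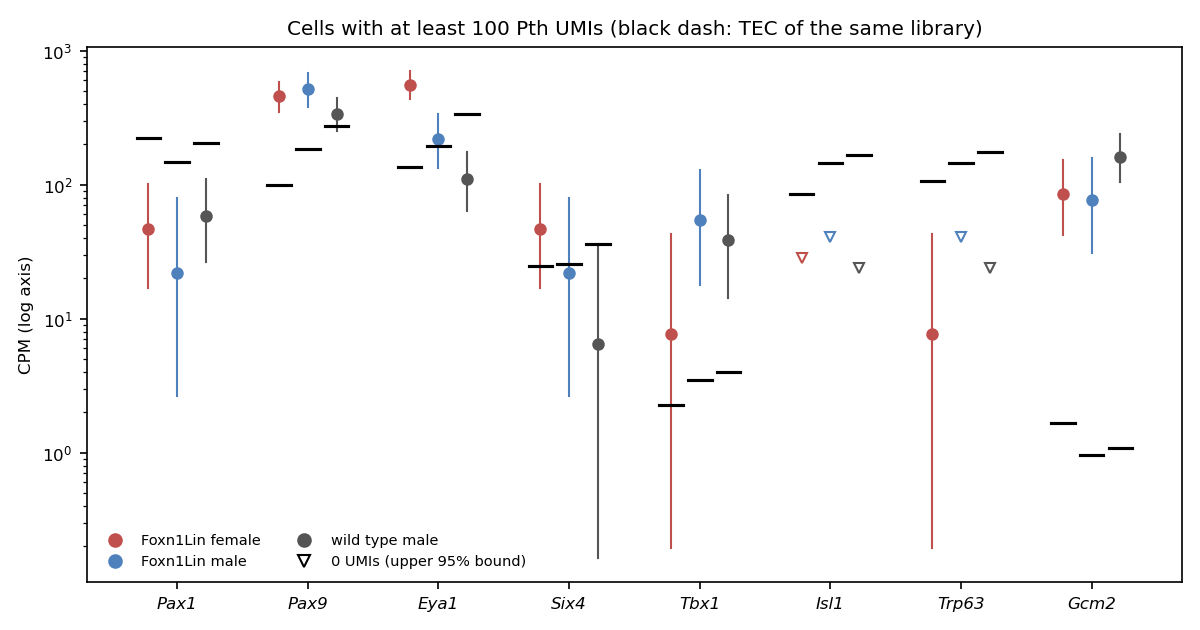
Level of each member (CPM, log axis) in cells with at least 100 Pth UMIs, 6, 4 and 1 cells in the 3 libraries; bars are exact Poisson 95% intervals, open triangles the upper bounds for 0 UMIs, and black dashes the TEC level of the same library. Pax9 lay above the TEC level in all 3 libraries, in wild type male with an interval that held that level, and Isl1 had 0 UMIs. Gcm2 lay above it too, but led to the choice of these cells and is no support.

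Gcm2 led to a few parathyroid-type cells. Cells with at least 100 UMIs of Pth, the gene of parathyroid hormone, numbered 6, 4 and 1, a limit set after the values were seen, and 4, 3 and 1 of them were in the TEC class. They held 57.1%, 99.2% and 98.8% of all Pth UMIs. Gcm2 was at 85.0, 76.6 and 161 CPM in them. Pax9 was at 456, 514 and 335 CPM, from 3, 3 and 1 cells, and lay above the TEC level of every library. In wild type male the value came from 1 cell of 155066 UMIs, and its interval of 250 to 440 CPM held the TEC level. Eya1 was at 556, 219 and 110 CPM, above the TEC level in Foxn1Lin female alone beyond its interval and below it in wild type male. Isl1 had 0 UMIs in all 11 cells, and Trp63 had 1 UMI in all. Tbx1 was at 7.73, 54.7 and 38.7 CPM from 1, 5 and 6 UMIs, and Pax1 was at 46.4, 21.9 and 58.0 CPM, below the TEC level in each library. With these cells left out, an alternative added after seeing the data, 7 of 8 members were called against FB and 7 against EC, and 2 in the Psmb11 comparison. Gcm2 then had too few UMIs to be tested. In the other 5 comparisons the number of called members was the same.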

How the data were processed

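Per the labels and the study's methods, libraries were made with 10x Genomics 3′ chemistry and mapped by the authors with Cell Ranger 7.0.1 (file headers; the submitters' processing notes write 7.01 and name GRCm38.p5 and mm10), with the reporter sequences added to the mouse genome. The deposited values are whole-number UMI counts per gene and barcode, and reads in introns were counted (21.7% to 27.5% of reads, as percent in the deposited summaries). Saturation was 52.1% to 81.0%.

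The members and lists were chosen with earlier results of these data known. Classes were set by fixed UMI limits, without clustering. The libraries shared 3 to 14 called barcodes in pairs. Raw counts were summed per library and class and tested with edgeR 4.0.16 (quasi-likelihood, TMM, genes with at least 10 UMIs, library as a block, since the classes of a library come from the same mice; Benjamini-Hochberg over all genes). SEs are the log2 difference over the root of F. With 1 library per group the spread is that between 3 libraries, which need not be biological alone. The rank test over cells of the study was not used, since cells are not replicates. Doublets were kept, and those with the highest 3.9% of Scrublet scores (scanpy 1.11.5) removed as an alternative. Empty droplets were barcodes within a factor of 2 of the most common depth outside the called ones. The other alternatives were DESeq2 1.42.0, RLE and no scaling, 2 other filters on low counts, a filter on cell quality, doubled and clean gates, exclusive TEC gates, fits of only the 2 classes compared, and each library left out. All members are described; the like genes are the 3 highest r per member, of which some are named, and up to 4 genes per list and comparison are named by smallest adjusted p, or because 1 library held most of their UMIs. Positions of GENCODE vM21 matched the gene IDs of all 8 members. Some genes of the lists count in the totals but are not reported here by name.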

Additional observations from a re-analysis of the deposited data

Results flagged for a closer look

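In 4 comparisons the log2 ratio of gated over other TEC pointed in opposite directions in 2 libraries with counting intervals that exclude 0; with 1 library per group, the difference between groups was not tested. The ratio of Pax1 in Plet1-gated TEC was -1.59 in the female library, 0.64 in Foxn1Lin male cells and -0.22 in the wild type. Isl1 in Ccl21a-gated TEC was 0.53 (0.525) for the female library, -0.28 for Foxn1Lin male and -0.21 (-0.205) for wild type male. Eya1 in Psmb11-gated TEC was at 0.70 in Foxn1Lin male, from 13 gated cells, and at -0.09 for the female library and -0.46 for wild type male. Tbx1 in Plet1-gated TEC was at 1.35 in wild type male, from 35 UMIs, and had 0 UMIs there in the other libraries, where 18 and 29 UMIs lay in the other TEC.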

How the results depend on the processing

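Of 120 counts of called members under other settings, 112 stayed within 1.5 times the main count and 8 moved. Of the members' CPM values by class, 429 stayed within the counting interval of the main value and 51 left it, 24 of them in clean classes and 16 with doubled thresholds. Of the shares of cells, recounted after thinning or with at least 2 UMIs, 39 stayed within it and 153 left it. An equal count can hold other members, as with cells of Psmb11 alone (Eya1 lower in place of Trp63 higher, in a fit without Foxn1Lin male) and doubled thresholds for Plet1 (Trp63 lower in place of Isl1 higher). Leaving out 1 library gave 1 to 2 called members in the Spp1-high comparison with TEC (2 without Foxn1Lin female) and 0 to 2 in the Plet1 comparison. The Psmb11 comparison called 5 members when genes with at least 1 UMI were tested, and 1 with no replicate block. With no replicate block the Ccl21a and the Plet1 comparisons called 0 each (Trp63 at 1.30, Isl1 at 0.75, edgeR), and the calls over all genes went from 5219 to 2554, from 1362 to 210 and from 1101 to 292. Cells of Plet1 alone against cells of no gate called 0 members and 148 genes. The same pooled mice stand behind the classes of a library, so the block is by design. The cause of these shifts was not tested.

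None of the differences that changed sign had passed the test. Leaving out each library in turn gave, for Spp1-high cells against TEC, Six4 at -0.31 to 0.10 and Tbx1 at -7.20 to 0.87, and against FB Tbx1 at -5.50 to 2.998 and Gcm2 at -1.82 to 0.051. For the gates it gave Eya1 in Psmb11 at -0.23 to 0.24, Isl1 in Ccl21a at -0.19 to 0.19, and in Plet1 Pax1 at -0.76 to 0.31, Eya1 at -0.20 to 0.088 and Tbx1 at -6.99 to 0.46. Tbx1 in Spp1-high cells against TEC was 0.0 with genes of at least 1 UMI, 0.088 without doublets, 0.20 in clean classes and 0.050 without the Pth-rich cells. Gcm2 in Spp1-high cells against FB was 5.10 with DESeq2 and 0.76 in clean classes. Eya1 in the Psmb11 gate was 0.008 with RLE, 0.027 with library totals, 0.016 with DESeq2, 0.017 with filterByExpr, 0.064 with genes of at least 1 UMI, 0.021 without doublets, 0.011 in clean classes and 0.021 without the Pth-rich cells. Pax9 there was -0.10 with doubled thresholds. That fit and the one of Psmb11 alone had under 10 gated cells in Foxn1Lin male and used the other 2 libraries, so 2 choices changed at once. Likewise clean classes left too few Spp1-high cells in Foxn1Lin female, and those fits had Spp1-high cells of the other 2 libraries. Cells of 1 gate against cells of no gate gave Pax9 -0.27 and Isl1 -0.051 for Psmb11, Eya1 -0.11 (-0.105) and Isl1 -0.21 (-0.207) for Ccl21a, and Pax9 -0.071 and Tbx1 0.41 for Plet1. Isl1 in the Ccl21a gate was -0.007 with library totals and -0.027 with no replicate block, and Tbx1 in the Plet1 gate was 0.0 with no replicate block. Counts of 13 to 36 Spp1-high cells and Tbx1 and Gcm2 UMIs limit what these data can show.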

Other observations

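The tdTomato reporter, listed as tdT-WPRE_trans, gave 1492 CPM in Spp1-high cells of Foxn1Lin female and 2003 CPM in those of Foxn1Lin male, against 837 and 1283 CPM in TEC, and 0 in wild type male. The Spp1-high values came from 13 and 34 cells, and the part of free RNA in them was not tested.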
